A study of Mus musculus with 6 samples.

Results

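Nrg1, Nrg2 and Nrg3 encode neuregulins, and Erbb4 encodes their receptor. These 4 genes were followed by symbol out of 25696 mouse genes present in any of the tables. They were described in bulk wells by treatment, in single nuclei sorted into plates, and in the annotation classes of a droplet experiment.

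Neuregulins are signalling proteins with an EGF-like domain, made mostly as membrane-bound precursors that proteases cut to release or expose that domain. Erbb4 is a receptor tyrosine kinase that binds all the neuregulins measured here and, once bound, signals through adaptors to the PI3K-Akt and Ras-MAPK pathways. In the cortex Erbb4 is known mainly from GABAergic interneurons and from cells of the oligodendrocyte lineage. Nrg1 and Nrg3 are known from excitatory neurons, and Nrg2 is known from several neuron types, among them cerebellar granule cells.

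The study isolated nuclei from 50 µm scrolls of formalin-fixed, paraffin-embedded (FFPE) brain of C57BL/6J mice aged 8 to 12 weeks, a wild-type inbred strain. All 6 samples are called mouse cortex. The labels name no animal, sex, transgene or treatment of the mice, and frozen wells and nuclei are named only in the annotation tables, so the sources used here leave the strain, age and region of the frozen material unstated. Paraffin was taken out by xylene, either heated or at room temperature, or by mineral oil with heating, and one question of the bulk experiment was how these 3 methods compare.

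The SCRB-seq table, a plate method that counts the 3' end of transcripts, held 64 wells: 16 for each method and 16 frozen, and in each 16 there were 8 wells of 10 nuclei and 8 of 100. The bulk SMART-Seq2 table, a full-length method, held 12 wells, with 10, 50 and 100 nuclei once for each method and once frozen. Totals ranged from 7512 to 167144 mouse counts per SCRB-seq well and from 270363 to 942966 per SMART-Seq2 well. Each bulk table is 1 sample, so p-values measure the spread between wells, which may be technical, and not between animals. SCRB-seq wells with the same treatment and nuclei number were pooled into 1 library, giving 8 pools, so that a pool and its group cannot be told apart. In bulk wells, fewer cells of a type and less RNA per cell cannot be told apart.

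The tissue label did not match the markers in full. The 10 measured genes of a cerebellar granule neuron list (Gabra6, Cbln3, Fat2, Zic1 and others) summed to 449 to 7055 CPM (a gene's counts scaled by the mouse counts of its library) in FFPE SCRB-seq wells, with a median of 2992, and to 56.8 to 605 CPM in frozen wells, with a median of 393. Gabra6 and Cbln3 were at 0 in all frozen wells. The 11 excitatory neuron markers summed to a median of 632 CPM (192 to 1382) in FFPE and 1927 CPM (1271 to 2271) in frozen wells. In SMART-Seq2 wells the same lists summed to medians of 4618 (2764 to 8707) against 452 CPM (385 to 677) and of 572 (138 to 949) against 2627 CPM (1724 to 2791). FFPE and frozen material therefore differed in neuron markers as well as in fixation, and the part of these markers in the results on the 4 genes was not tested.

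On the GRCm38 build with the GENCODE M21 annotation, all 4 genes are protein-coding. Erbb4 covers 1:68032186-69108059, Nrg1 covers 8:31814551-32884029 and Nrg3 covers 14:38368952-39473088, each on the minus strand, and Nrg2 is on chromosome 18. Nrg1, Nrg2 and Nrg3 overlap annotated genes on the opposite strand, and Erbb4 (8 genes) and Nrg3 (Gm27332) overlap others on the same strand. Only the droplet table had counts for any of these: 81 for Gm20642, 17 for Nrg3os and 1 for Gm20641, all over Nrg3 with its 5972 UMIs, and 2 for Gm26578 over Nrg1 with its 3083 UMIs. No source used here says whether the counting used strand, so reads of such partners may be included in the neuregulin values, and reads of the same-strand genes in those of Erbb4 and Nrg3.

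Nrg1, the most studied neuregulin and a ligand of Erbb3 as well as Erbb4, was lower in FFPE than in frozen wells in both assays. In the 48 FFPE SCRB-seq wells its level ran from 0 to 1251 CPM with a median of 145, and in the 16 frozen wells from 1195 to 2878 CPM with a median of 2171. The groups barely overlapped: 47 of 48 FFPE wells lay below the lowest frozen well. Of all 1478 genes tested in this comparison, 58.0% were called, so that a call alone is common here. The means were 235 ± 259 CPM (SD, n = 48) and 2241 ± 510 CPM (n = 16). The log2 fold change of FFPE minus frozen was -3.31 (SE 0.27, edgeR quasi-likelihood test, Benjamini-Hochberg adjusted p = 4.35e-18). A 2-sided permutation test of mean CPM gave p = 2e-05, the smallest its resamples can give, in a family of 20 such tests over the 4 genes that were not adjusted for each other.

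In the SMART-Seq2 wells of 10, 50 and 100 nuclei, Nrg1 was at 3742, 3192 and 3414 CPM in frozen nuclei. It was at 117, 97.0 and 132 CPM after mineral oil, at 709, 483 and 663 CPM after heated xylene, and at 0, 730.3 and 1080.3 CPM after room-temperature xylene. All 9 FFPE wells were below all 3 frozen wells, and the room-temperature xylene well of 10 nuclei had no Nrg1 count among 492573. The log2 fold change was -3.56 (SE 0.61, edgeR adjusted p = 0.000791), in a comparison that called 4.09% of genes, and an exact 2-sided permutation test gave p = 0.00909, the smallest that 9 against 3 wells allow.

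Each paraffin removal method on its own also gave lower Nrg1 than frozen nuclei. In SCRB-seq the log2 fold changes were -3.28 for mineral oil, -2.60 for heated xylene and -3.34 for room-temperature xylene, each past the threshold of adjusted p under 0.05. In SMART-Seq2 they were -5.07, -2.58 and -2.72, of which the last missed it (SE 1.31, edgeR adjusted p = 0.333). These 3 comparisons share the frozen wells. In SCRB-seq, mineral oil against frozen called 59.0% of all genes (34.7% in the lower direction, 24.3% in the other), heated xylene 57.0% (27.5% and 29.5%) and room-temperature xylene 59.0% (26.6% and 32.4%). In SMART-Seq2, mineral oil called 4.13% (2.36% in the lower direction, 1.77% in the other), heated xylene 2.78% (1.17% and 1.61%) and room-temperature xylene 1.92% (1.07% and 0.851%).

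Nrg3, a neuregulin whose known receptor is Erbb4 alone, was also lower in FFPE wells. In SCRB-seq it ran from 99.8 to 2796 CPM with a median of 594 in FFPE wells, and from 1136 to 3433 CPM with a median of 2329.8 in frozen wells. Of the FFPE wells, 44 of 48 were below the lowest frozen well. The means were 660.1 ± 455 CPM (SD, n = 48) and 2391 ± 620.1 CPM (n = 16), a log2 fold change of -1.92 (SE 0.21, edgeR adjusted p = 4.82e-13). The permutation test gave p = 2e-05.

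In SMART-Seq2 wells of 10, 50 and 100 nuclei, frozen Nrg3 was at 4702, 4549 and 4663 CPM. After mineral oil it was at 616, 1062 and 1236 CPM, after heated xylene at 3099, 1326 and 1223 CPM, and after room-temperature xylene at 654, 803 and 1046 CPM. The frozen wells sat close together and above all 9 FFPE wells, with heated xylene at 10 nuclei nearest to them. The log2 fold change was -2.26 (SE 0.28, edgeR adjusted p = 9.94e-06), with an exact permutation p = 0.00909.

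By method, the SCRB-seq log2 fold changes of Nrg3 against frozen were -1.72 for mineral oil, -1.67 for heated xylene and -1.67 for room-temperature xylene. All 3 were called. In SMART-Seq2 they were -2.44, -1.37 and -2.69, and heated xylene missed the threshold (SE 0.40, edgeR adjusted p = 0.103).

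Nrg2, another neuregulin that binds Erbb4, overlapped widely between FFPE and frozen wells. In SCRB-seq it ran from 0 to 2982 CPM with a median of 104 in FFPE wells, and from 15.3 to 296 CPM with a median of 117 in frozen wells. The means were 226 ± 439 CPM (SD, n = 48) and 132 ± 88.5 CPM (n = 16). The log2 fold change was 0.43 (SE 0.42, edgeR adjusted p = 0.400) and the permutation p = 0.319, so no difference passed. With DESeq2's size factors the sign turned, to -0.11 (edgeR adjusted p = 0.827), and in wells of 100 nuclei alone Nrg2 was called higher, at 1.13 (edgeR adjusted p = 0.0263).

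In SMART-Seq2 wells of 10, 50 and 100 nuclei, Nrg2 was at 509, 429 and 330.0 CPM in frozen nuclei. It was at 542, 565 and 646 CPM after mineral oil, at 948, 483 and 517 CPM after heated xylene, and at 782, 536 and 351 CPM after room-temperature xylene. Here 7 of 9 FFPE wells were above the highest frozen well, but the log2 fold change of 0.26 (SE 0.40, edgeR adjusted p = 0.863) and the exact permutation test (p = 0.0909) did not pass. In SCRB-seq, Nrg2 against frozen could be tested after the filter on low counts for room-temperature xylene alone, where it was higher by a log2 fold change of 0.97 (SE 0.40, edgeR adjusted p = 0.0360).

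Erbb4, the receptor, was not called lower in FFPE wells in either assay. In SCRB-seq it ran from 0 to 2619 CPM with a median of 305 in FFPE wells, and from 16.7 to 470.1 CPM with a median of 194 in frozen wells. The groups overlapped, with 14 of 48 FFPE wells above the highest frozen well and 4 below the lowest. The means were 464 ± 498 CPM (SD, n = 48) and 231 ± 148 CPM (n = 16). The log2 fold change was 0.84 (SE 0.36, edgeR adjusted p = 0.0399) and the permutation p = 0.0315.

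That call on Erbb4 did not hold under other settings: with DESeq2's size factors in place of TMM scaling the log2 fold change was 0.27 (edgeR adjusted p = 0.524), and it was also lost when 5 of the 8 library pools were left out, each on its own. Adjusted p ran from 3.69e-05 to 0.524 over its alternatives. The pools whose removal ended the call were mineral oil, heated xylene and room-temperature xylene at 100 nuclei (log2 fold changes 0.74, 0.77 and 0.49) and frozen at 10 and at 100 nuclei (0.43 and 1.12). By method against frozen, Erbb4 was higher after heated xylene (1.73, SE 0.34, edgeR adjusted p = 3.69e-05), while mineral oil at 1.00 (adjusted p = 0.0537) and room-temperature xylene at 0.49 (adjusted p = 0.223) did not pass. Several marker lists were higher in FFPE SCRB-seq wells as well. The 14 inhibitory neuron genes measured summed to a median of 985 CPM (0 to 3069) in FFPE and 479.9 CPM (264 to 1062) in frozen wells. The 8 oligodendrocyte genes summed to 1314 CPM (0 to 13947) and 446 CPM (162 to 849.9). The 7 oligodendrocyte precursor genes measured summed to 336 CPM (0 to 2010.1) and 70.4 CPM (0 to 203), with Sox10 at 0 in all frozen wells. Medians of the astrocyte (2510 against 1033 CPM), microglia (404 against 167 CPM) and endothelial (309 against 214 CPM) lists were higher too. Those of the excitatory neuron, Purkinje and striatal lists were lower. In SMART-Seq2 wells, where Erbb4 was not called, the inhibitory, oligodendrocyte and precursor medians were also higher in FFPE. They were 1722 against 690, 2124 against 163 and 361 against 74.0 CPM. No marker of the inhibitory list was at 0 in all frozen SCRB-seq wells, while Slc32a1 and Pvalb were at 0 in all frozen SMART-Seq2 wells. The part of these lists in the Erbb4 values was not tested.

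In SMART-Seq2 wells of 10, 50 and 100 nuclei, frozen Erbb4 was at 3.37, 1705 and 225 CPM. After mineral oil it was at 349, 613 and 436 CPM, after heated xylene at 312, 2071 and 1455 CPM, and after room-temperature xylene at 506, 332 and 883 CPM. The groups overlapped, and the log2 fold change was -0.03 (SE 0.75, edgeR adjusted p = 0.993, exact permutation p = 0.809). Leaving out the frozen well of 50 nuclei moved it to 2.36 (edgeR adjusted p = 0.237), which was not called either.

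Among the members, 3 of 4 were called in SCRB-seq (Nrg1 and Nrg3 lower, Erbb4 higher), where 58.0% of the 1478 genes tested were called, 30.2% higher and 27.7% lower. Most genes differed there, and a share of 3 of 4 is near that background. In SMART-Seq2, 2 of 4 were called (Nrg1 and Nrg3, both lower), where 4.09% of 9092 genes were called, 1.45% higher and 2.64% lower. The scaling matters in SCRB-seq: TMM put the median log2 fold change of all genes at 0.00 with 447 genes higher and 410 lower, and DESeq2's size factors put it at -0.58 with 309 higher and 674 lower. Relative to either median, Nrg1 and Nrg3 were lower.

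**Figure D1:**
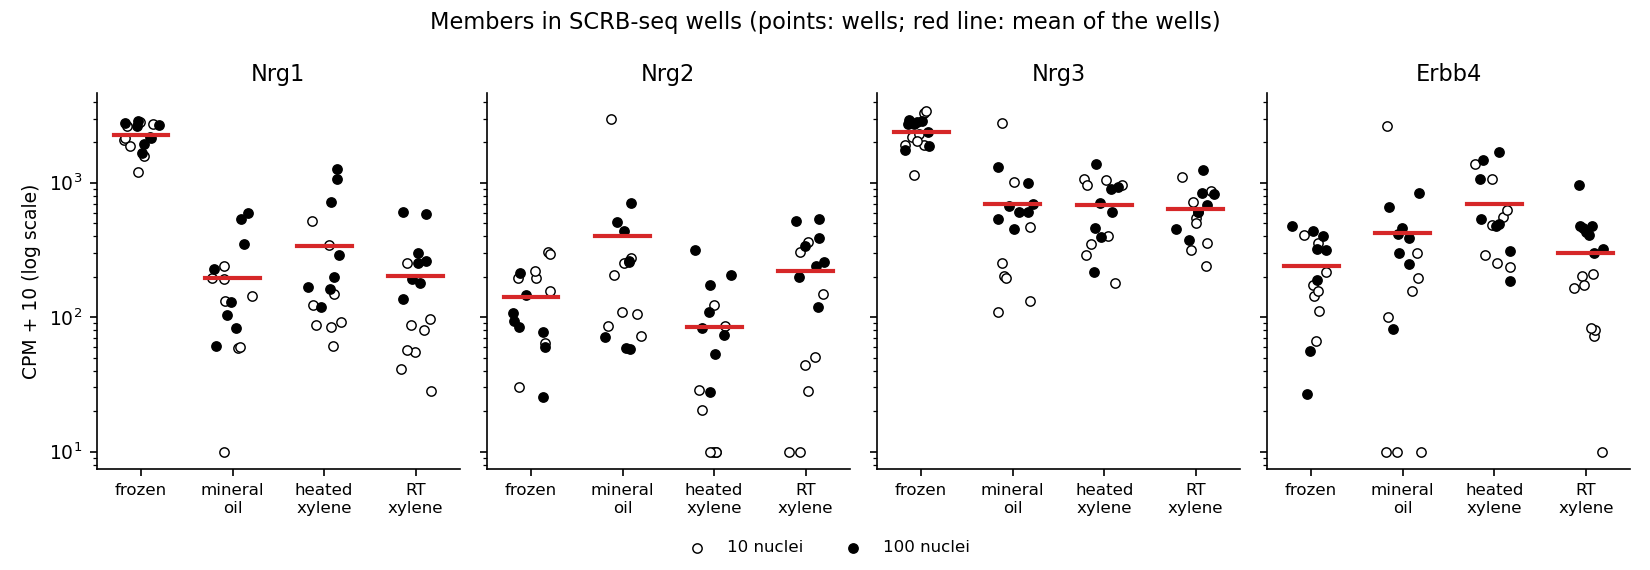
Level of each gene in every SCRB-seq well, as CPM + 10 on a log axis, by treatment (RT xylene: room-temperature xylene); open points are wells of 10 nuclei, filled points wells of 100 nuclei, red lines the mean of 16 wells. Frozen wells stand above nearly all FFPE wells for Nrg1 and Nrg3 and lie within the FFPE range for Nrg2 and Erbb4.

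**Figure D2:**
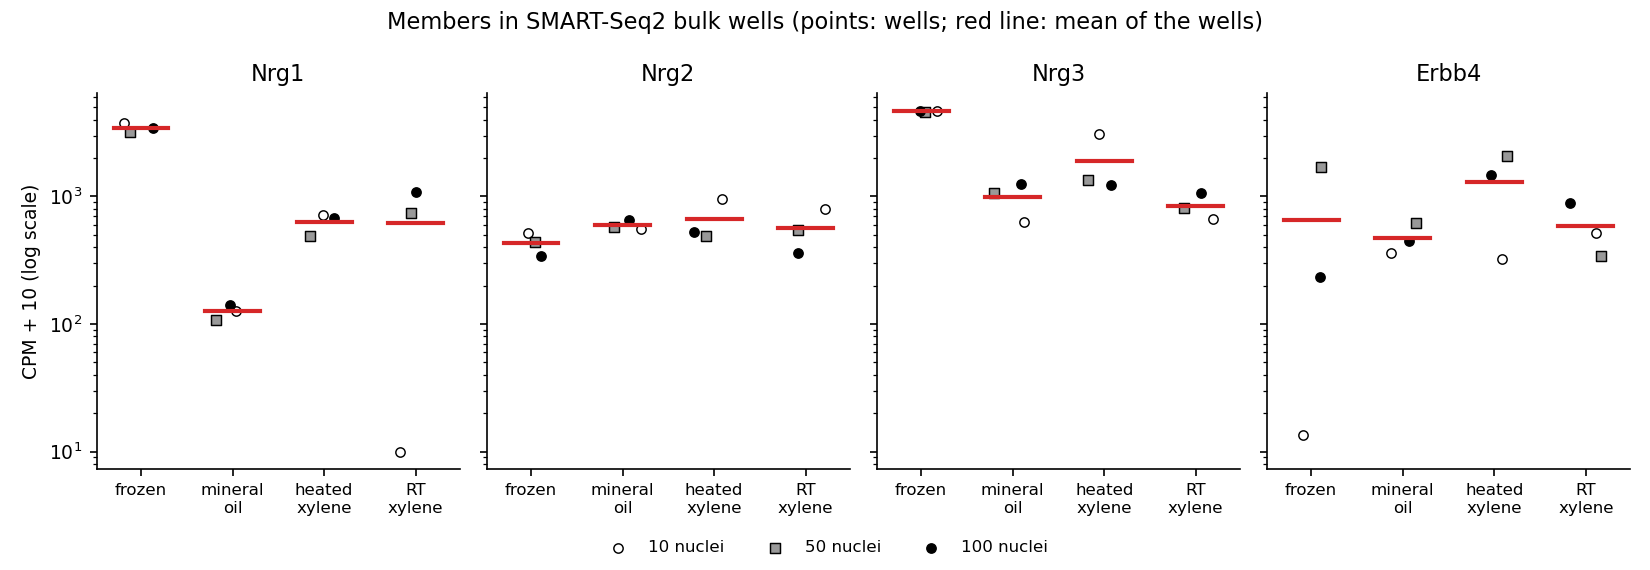
Level of each gene in every bulk SMART-Seq2 well, as CPM + 10 on a log axis, by treatment; open circles are 10 nuclei, grey squares 50, filled circles 100, and red lines the mean of 3 wells. The 3 frozen wells are above all 9 FFPE wells for Nrg1 and Nrg3, and spread from 3.37 to 1705 CPM for Erbb4.

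**Figure D3:**
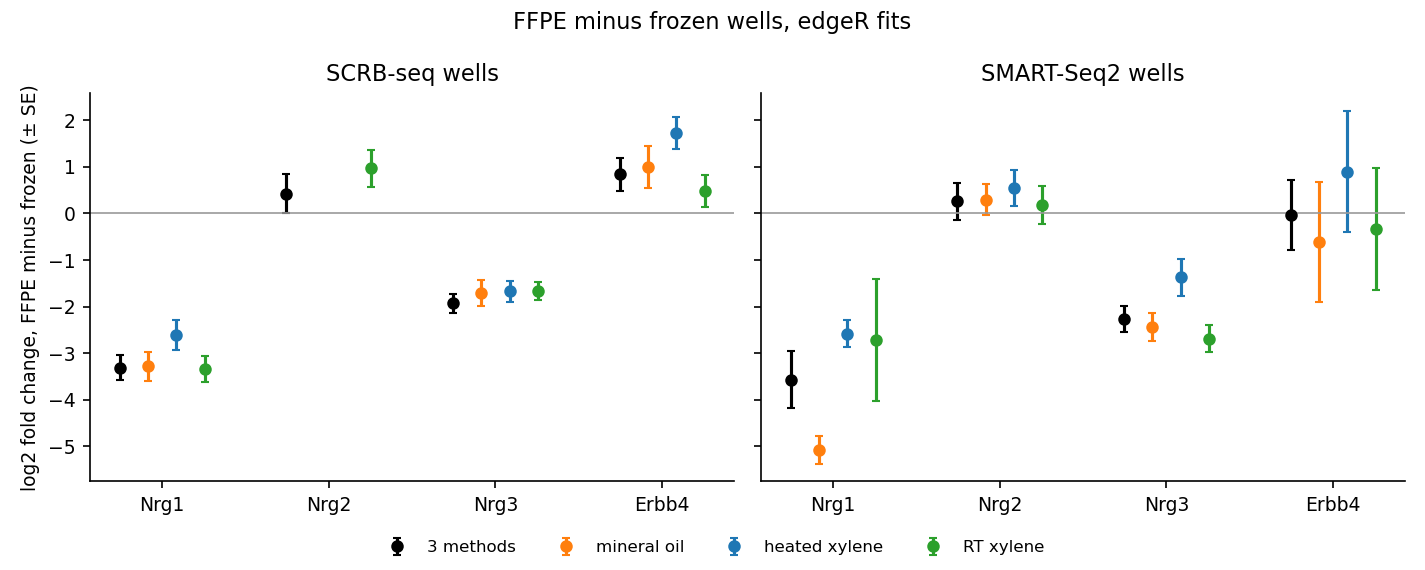
Log2 fold change of FFPE minus frozen wells with its SE from edgeR, for the mean of the 3 methods (black) and for each method alone against the same frozen wells (colours). Nrg1 and Nrg3 lie below 0 in both assays, and the bars of Erbb4 in SMART-Seq2 cross 0; Nrg2 in SCRB-seq has a value only where it passed the filter on low counts.

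The balance between receptor and ligands within a well does not depend on scaling between wells. Erbb4 made up 26.9% ± 18.8 (SD, n = 48) of the counts of the 4 genes in FFPE SCRB-seq wells, from 0% to 84.3% with a median of 24.1%. In frozen wells it made up 4.70% ± 3.08 (n = 16), from 0.294% to 10.9% with a median of 4.17%. Of the FFPE wells, 40 of 48 were above the highest frozen well, and the difference was 22.2 percentage points (2-sided permutation p = 2e-05, 4e-05 after Benjamini-Hochberg adjustment over the 2 assays).

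In SMART-Seq2 the share was 24.8% ± 12.3 (SD, n = 9) in FFPE, from 6.15% to 47.5%, and 6.64% ± 9.29 (n = 3) in frozen wells, from 0.0376% to 17.3%. Of the FFPE wells, 7 of 9 were above the highest frozen well, a difference of 18.1 percentage points (exact permutation p = 0.0273). Leaving out the frozen well of 10 or of 100 nuclei ended this call, at 14.8 and 16.1 percentage points (exact permutation p = 0.109 each). In SCRB-seq the difference was 21.4 points among wells of 10 nuclei alone and 23.0 points among wells of 100. The share rises when the ligands fall as well as when the receptor rises, and Nrg1 and Nrg3 are the 2 genes whose fall was called in both assays.

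Between the 3 methods, only Nrg2 was called. In SCRB-seq wells it ran from 47.9 to 2982 CPM with a median of 219 after mineral oil, from 0 to 308 CPM with a median of 53.3 after heated xylene, and from 0 to 527 CPM with a median of 209.6 after room-temperature xylene. The ranges overlapped, with 4 of 16 mineral oil wells above the highest heated xylene well and 4 of 16 heated xylene wells without a count. Mineral oil minus heated xylene was a log2 fold change of 2.13 (SE 0.57, edgeR adjusted p = 0.00995, permutation p = 0.0031), 1 called gene of 4 where 8.52% of 1080 genes were called, 1.57% higher and 6.94% lower. The call stood with nuclei number as a term, where 13.2% of genes were called, and not in wells of 100 nuclei alone, where 13.1% were. Without a single mineral oil well of 10 nuclei, which held 33 Nrg2 counts among 11066, it was 1.51 (edgeR adjusted p = 0.0603) and no longer called. Without another mineral oil well of 10 nuclei, Erbb4 was called lower in mineral oil than in heated xylene, at -1.27 (edgeR adjusted p = 0.0450).

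Heated xylene minus room-temperature xylene gave -1.44 for Nrg2 (SE 0.55, edgeR adjusted p = 0.165, permutation p = 0.00744) and 1.26 for Erbb4 (SE 0.43, edgeR adjusted p = 0.116, permutation p = 0.00538). By edgeR, 0 of 4 members were called in this pair, where 1.94% of genes were (1.02% higher, 0.926% lower), and these 2 genes were at an unadjusted p under 0.05. With nuclei number as a term Erbb4 alone of the members was called (log2 fold change 1.40, edgeR adjusted p = 0.0403) where 5.74% of genes were, with no filter on low counts 2 where 15.9% were, and in wells of 100 or of 10 nuclei alone 0 where 5.99% and 2.75% were. The Erbb4 log2 fold change was 0.79 in wells of 100 nuclei (mean 768 against 469 CPM; edgeR adjusted p = 0.263) and 2.24 in wells of 10 (603 against 115 CPM; edgeR adjusted p = 0.119), the ends of its range over alternatives. Erbb4 ran from 177 to 1678 CPM with a median of 507 after heated xylene, from 0 to 956 CPM with a median of 246 after room-temperature xylene and from 0 to 2619 CPM with a median of 263 after mineral oil. All 16 heated xylene wells held Erbb4, and 5 of them were above the highest room-temperature xylene well.

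Mineral oil minus room-temperature xylene gave no called member in edgeR or DESeq2 and none at an unadjusted p under 0.05, where 10.3% of genes were called, 2.5% higher and 7.78% lower. Nrg1 and Nrg3 were called between no pair of methods in SCRB-seq. Nrg1 medians were 127 CPM (0 to 587) after mineral oil, 155 CPM (50.5 to 1251) after heated xylene and 148 CPM (18.3 to 599) after room-temperature xylene. Nrg3 medians were 558, 648 and 596 CPM in the same order.

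In the SMART-Seq2 wells, 0 members were called between methods by edgeR or DESeq2, and 0.0% of the 8372 genes tested were called in any pair by edgeR. At an unadjusted p under 0.05 stood Nrg1, Nrg3 and Erbb4 for mineral oil minus heated xylene (log2 fold changes -2.45, -1.04 and -1.45), Nrg3 and Erbb4 for heated minus room-temperature xylene (1.32 and 1.22), and Nrg1 for mineral oil minus room-temperature xylene (-2.26). None of these passed adjustment (edgeR adjusted p = 0.999 or above). Erbb4 after heated xylene was the highest of the 3 methods by mean CPM in both assays, at 685 CPM in SCRB-seq and 1279 CPM in SMART-Seq2. In the SMART-Seq2 wells of 10 nuclei it was the lowest, at 312 CPM against 349 CPM after mineral oil and 506 CPM after room-temperature xylene.

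The contrasts of many genes differed between SCRB-seq wells of 10 and of 100 nuclei, but none of the 4 members passed the threshold. Each treatment at each nuclei number was its own library pool, so nuclei number and pool cannot be told apart in these terms. Of 16 interaction terms of the members, edgeR called 0, with 3 at an unadjusted p under 0.05. The lowest edgeR adjusted p was 0.0640, for Nrg2 between mineral oil and heated xylene. Over all genes, edgeR called 18.9% of such terms for FFPE minus frozen, 28.6% between mineral oil and heated xylene, 29.6% between mineral oil and room-temperature xylene and 5.0% between the xylene methods. No other tool was run on these terms. Fewer FFPE wells of 10 than of 100 nuclei held a count of Erbb4 or Nrg2. Erbb4 had a count in 20 of 24 FFPE wells of 10 nuclei and in 24 of 24 wells of 100, and Nrg2 in 18 of 24 and 24 of 24. Nrg3 had a count in all 48 FFPE wells and Nrg1 in 47. All 8 frozen wells of 10 nuclei held each of the 4 genes, with 294313 counts between them, while Nrg2 was in 4 of 8 heated xylene wells of 10 nuclei with 439702 counts, 6 of 8 room-temperature xylene wells with 487311 and 8 of 8 mineral oil wells with 115185.

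Of 92 other genes of ErbB signalling, 21 could be tested for FFPE minus frozen in SCRB-seq, and 7 were higher and 8 lower, 15 called of 21 where 58.0% of all genes were, with a median log2 fold change of -0.15 against 0.00 over all genes. Scaled by DESeq2's size factors, 2 were higher and 10 lower, where 66.5% of all genes were called (20.9% higher, 45.6% lower), with medians of -0.75 and -0.58. Both shares are near those over all genes. Gsk3b, a kinase that Akt inhibits, was higher under both scalings (1.45 under TMM). The largest falls were Camk2a, a calcium-dependent kinase of excitatory neurons and itself on the excitatory marker list (-3.30), and Ptk2, the focal adhesion kinase (-1.83). The postsynaptic scaffold genes that were tested, Dlg1, Dlg2, Magi1 and Magi2, were all lower, 4 of 4 under both scalings, from -0.77 for Magi2 to -1.18 for Dlg2 under TMM, where 27.7% of all genes were lower.

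In SMART-Seq2, 79 of the 92 genes could be tested, and 0 were higher and 4 lower, among them Camk2a (-3.08), Mapk10, a neuronal JNK kinase (-1.48), and Dlg2 (-1.26). Over all 9092 genes 4.09% were called, 1.45% higher and 2.64% lower. The list's median log2 fold change was 0.02, against -0.13 over all genes. The other ErbB receptors, the other EGF-family ligands and the proteases that shed neuregulins did not pass the filter on low counts in SCRB-seq (0 of 17 tested). In SMART-Seq2, 9 of these 17 were tested and none was called.

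Between methods in SCRB-seq, 19 of the 92 could be tested. Mineral oil minus heated xylene called 1 higher and 1 lower, heated minus room-temperature xylene 0 higher and 1 lower, and mineral oil minus room-temperature xylene 1 higher and 2 lower. Over all 1080 genes these pairs called 8.52%, 1.94% and 10.3% beside 2, 1 and 3 of the 19. Mapk10 was higher (1.61) and Dlg2 lower (-0.74) in mineral oil than in heated xylene. Braf, a Raf kinase, was higher (1.62) and Dlg2 lower (-0.96) in mineral oil than in room-temperature xylene. With DESeq2's size factors the calls on Dlg2 against heated xylene and on Braf were lost.

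In single nuclei sorted into plates, 143 FFPE nuclei (plates MB14 and MB16) and 137 frozen nuclei stood in 1 table. Of the FFPE nuclei, 134 were the same as batch 2, with 0 values differing over 21117 genes, and the other 9 had 102136 to 4973791 counts each and held 57.3% of all FFPE counts. A further 98 FFPE nuclei formed batch 1, and the table of batch 3 held 0 nuclei. FFPE batches 1 and 2 are 1 sample each and the frozen nuclei form 1 set, so no test was made. Intervals are exact 95% binomial or Poisson intervals and cover counting error only. Median totals were 42747 counts in batch 2, 180584 in batch 1 and 255329 in frozen nuclei.

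Nrg1 had a count in 92.0% of frozen nuclei (86.1 to 95.9) and in 50.7% of FFPE nuclei of batch 2 (42.0 to 59.5). At an equal depth of 10000 counts per nucleus, which left out 10 frozen and 8 FFPE nuclei of batch 2, the shares were 70.1% (61.3 to 77.9) and 30.2% (22.3 to 39.0). Batch 1, drawn down the same way with 8 nuclei left out, gave 25.6% (16.9 to 35.8). Both FFPE batches lay below frozen nuclei at equal depth, with intervals apart. The mean over nuclei was 845 CPM in frozen, 270.1 CPM in batch 2 and 608 CPM in batch 1. By summed CPM the values were 710 in frozen, 480 in batch 2 and 789 in batch 1, so that the frozen to batch 2 ratio was 3.13 by the mean and 1.48 by the sum, and batch 1 stood above frozen by the sum.

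Nrg3 had a count in 93.4% of frozen nuclei (87.9 to 97.0) and 73.9% of batch 2 (65.6 to 81.1). At equal depth the shares were 87.4% (80.3 to 92.6) in frozen nuclei, 53.2% (44.1 to 62.1) in batch 2 and 54.4% (43.6 to 65.0) in batch 1. Here too both FFPE batches were below frozen nuclei with intervals apart. The mean over nuclei was 1154 CPM in frozen, 448 CPM in batch 2 and 553 CPM in batch 1.

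The sum over all FFPE nuclei hid this for Nrg3: it was 1319 CPM in FFPE and 1175 CPM in frozen nuclei, and 422 CPM without the 9 large nuclei. Those 9 nuclei had 1989 CPM of Nrg3 as a sum and 883 CPM as a mean over nuclei. No source used here says whether each of them held 1 nucleus.

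For Nrg2 and Erbb4 the intervals of FFPE and frozen nuclei overlapped once depth was equal. Nrg2 had a count in 73.7% of frozen and 59.0% of batch 2 nuclei, and at equal depth in 47.2% (38.3 to 56.3), 50.0% (41.0 to 59.0) of batch 2 and 36.7% (26.8 to 47.5) of batch 1. Erbb4 had a count in 67.9% of frozen and 63.4% of batch 2 nuclei, and at equal depth in 42.5% (33.8 to 51.6), 43.7% (34.8 to 52.8) of batch 2 and 57.8% (46.9 to 68.1) of batch 1. Batch 1 thus lay below the other nuclei for Nrg2 and above them for Erbb4, within overlapping intervals.

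By mean over nuclei, Nrg2 was at 319 CPM in frozen nuclei, 402 CPM in batch 2 and 414 CPM in batch 1. Erbb4 was at 689, 373 and 1015 CPM, so the 2 FFPE batches lay on either side of the frozen value. Within batch 2, Erbb4 also differed between plates, with 118 CPM summed in MB14 and 509 CPM in MB16. As a background, of 3396 genes with at least 100 CPM in either group, 33.0% were at least 2-fold lower and 26.5% at least 2-fold higher in all FFPE than in frozen nuclei by summed CPM. By that sum Nrg2 alone of the 4 genes passed 2-fold, at 459 CPM in FFPE against 188 CPM in frozen nuclei. Without the 9 large nuclei 3 of 4 passed it, Nrg2 higher (619 CPM) and Nrg3 (422 CPM) and Erbb4 (321 CPM) lower, where 30.8% of 3504 genes were lower and 29.8% higher. By mean over nuclei, still without those 9, another set passed, Nrg1 (3.13-fold) and Nrg3 (2.58-fold) lower, where 28.2% of 3424 genes were lower and 31.3% higher, while Nrg2 (1.26-fold higher) and Erbb4 (1.85-fold lower) did not.

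**Figure D4:**
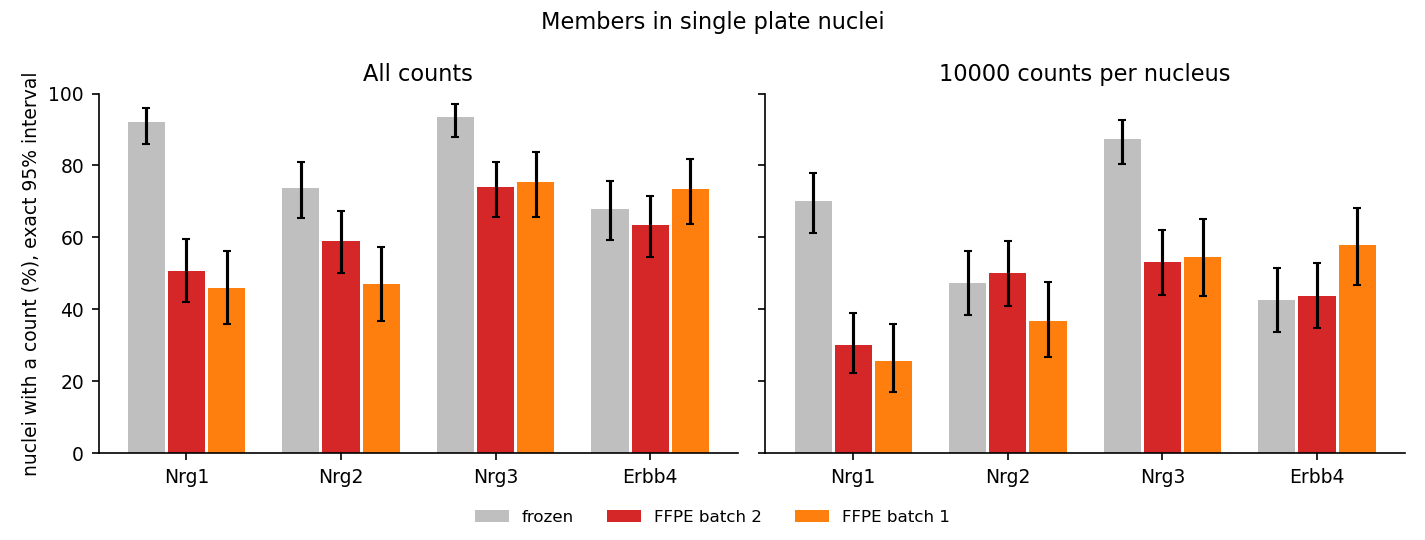
Share of plate nuclei with at least 1 count of each gene, in percent with exact 95% binomial intervals, for frozen nuclei, FFPE batch 2 and FFPE batch 1, with all counts (left) and with 10000 counts drawn per nucleus (right). At equal depth Nrg1 and Nrg3 are caught in fewer FFPE than frozen nuclei, while the intervals of Nrg2 and Erbb4 overlap.

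Nuclei were also split by granule neuron markers, a split made after values had been seen. Nrg2 went with these markers in FFPE nuclei. In batch 2 it was at 788 CPM summed over 79 nuclei with at least 5 counts of Gabra6, Cbln3 and Fat2, and at 86.0 CPM over 32 nuclei with none of them. In batch 1 it was at 883 CPM over 40 nuclei and 113 CPM over 53. Frozen nuclei with none of these markers (122) had 186 CPM of Nrg2, so that without granule markers batch 2 was below frozen, not above. Erbb4 in nuclei without granule markers was at 773 CPM in batch 2 and 824 CPM in frozen nuclei, and Nrg3 at 189 and 1202 CPM.

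Nrg1 or Nrg3 stood together with the receptor in a larger share of frozen than of FFPE nuclei, while for Nrg2 the order turned with depth. With at least 5 counts as presence, 57 of 137 frozen nuclei held both Nrg1 and Erbb4, and 65 held both Nrg3 and Erbb4. In FFPE nuclei these were 21 and 34 of 134 in batch 2, and 9 and 29 of 98 in batch 1. At 10000 counts per nucleus they were 10 and 15 of 127 in frozen nuclei, 1 and 7 of 126 in batch 2, and 2 and 7 of 90 in batch 1. Nrg2 and Erbb4 stood together in 42 frozen, 21 batch 2 and 20 batch 1 nuclei with all counts, and in 0 of 127, 2 of 126 and 7 of 90 at 10000 counts. With all counts Nrg1 was present in 79.2% of frozen nuclei with Erbb4 and 64.6% of those without, in 38.9% and 23.8% in batch 2, and in 16.98% and 28.9% in batch 1. Nrg3 was present in 90.3% and 75.4% of the same frozen nuclei, 63.0% and 43.8% in batch 2, and 54.7% and 53.3% in batch 1. At 10000 counts these were 40% and 36.3% for Nrg1 and 60.0% and 61.8% for Nrg3 in frozen nuclei. In batch 2 they were 4.55% and 12.5% for Nrg1 and 31.8% and 25% for Nrg3, and in batch 1 5.71% and 25.5% for Nrg1 and 20% and 36.4% for Nrg3. No single direction held over these sets of nuclei and depths. The values describe these libraries, with depth shared by both genes of a pair in the undrawn counts.

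The droplet table held 7031 FFPE nuclei in 12 classes given by the authors, with 7031 distinct barcodes and 235 to 998 UMIs each (median 325). It is 1 sample without frozen nuclei, and no test was made. The class names were taken as deposited, and the name ExNeuron4 went against its markers. It was led by Kcnmb2, Grik1, Adarb2 and Kcnip1, genes of GABAergic interneurons, and held the highest sum of the inhibitory list among the 12 classes (5049 CPM, against 1085 CPM in ExNeuron1). ExNeuron6 held 3089 CPM of that list and the highest level of Gad1, which makes GABA (615 CPM, against 288 CPM in ExNeuron4), beside 505 CPM of Slc17a7, a glutamate transporter. ExNeuron3 held 4713 CPM of the list of granule neurons, which are glutamatergic, with Fat2 among its leading genes.

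Nrg1 was highest in ExNeuron1 (1803 CPM, 1712 to 1897) and ExNeuron5 (1702 CPM, 1488 to 1939), which did not differ beyond their intervals. Both stood apart from the next class, ExNeuron6 (1132 CPM, 913 to 1389), followed by ExNeuron4 (1058 CPM). From there to ExNeuron3, the lowest (613 CPM, 538 to 696), every neighbour in the order overlapped. ExNeuron1 was 2.94 times ExNeuron3. It had a UMI in 35.5% of ExNeuron1 nuclei (median 331 UMIs) and in 16.1% of microglia (median 285 UMIs), which serve here as background, and ExNeuron3 (15.7%) was at that level.

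Nrg3 was highest in ExNeuron5 (3659.95 CPM, 3342 to 3999.55), apart from ExNeuron1 (2981 CPM) and ExNeuron4 (2804 CPM), which overlapped. These 3 were apart from OPC, the oligodendrocyte precursors (1842 CPM, 1550.4 to 2172), and from there down to fibroblasts (959 CPM, 47 nuclei) all neighbours overlapped. Nrg3 had a UMI in 63.1% of ExNeuron5 nuclei, 58.4% of ExNeuron4 nuclei and 30.1% of microglia. At 200 UMIs per nucleus the shares were 45.6%, 36.7% and 19.4%.

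Nrg2 was sparse, with a UMI in 7.04% of all nuclei. It was highest in ExNeuron3 (359 CPM, 302 to 424), then in ExNeuron2 (266 CPM, 215 to 326), and lowest in astrocytes (98.2 CPM, 62.3 to 147). The granule list was also highest in ExNeuron3 (4713 CPM), then in ExNeuron2 (3546 CPM). In the other classes that list summed to between 1615 CPM (fibroblasts) and 2936 CPM (microglia). All neighbours in the order of Nrg2 overlapped. A UMI was found in 11.5% of ExNeuron3 nuclei (9.67 to 13.5) and in 6.45% of microglia (2.40 to 13.5), of which only 6 of 93 nuclei had one, so that the intervals overlapped. The interval of ExNeuron3 lay above that of astrocytes (2.35 to 5.48) and of oligodendrocytes (1.86 to 6.51). At 200 UMIs per nucleus it was 4.97 to 7.94% in ExNeuron3 and 0.998 to 3.34% in astrocytes, still apart, and 1.17 to 5.22% in oligodendrocytes, which overlapped.

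Erbb4 was highest in ExNeuron4 (1901 CPM, 1749 to 2063), the class led by interneuron genes, and in OPC (1659 CPM, 1383 to 1974), which overlapped. Oligodendrocytes followed (1177 CPM, 982 to 1399), overlapping OPC by a narrow margin, then ExNeuron6 (874 CPM, 682 to 1102). Lowest were ExNeuron1 (382 CPM, 341 to 426) and fibroblasts (303 CPM, 111 to 659). ExNeuron4 was 4.98 times ExNeuron1, the reverse of the order of these 2 classes for Nrg1.

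A UMI of Erbb4 was found in 86 of 215 OPC (95% interval 33.4 to 46.9%), 32.0% of ExNeuron4 (28.6 to 35.5), 31.5% of oligodendrocytes (26.3 to 37.2), 13.3% of ExNeuron1 (11.9 to 14.9) and 12.9% of microglia (6.85 to 21.5). Median UMIs were 340, 371, 314, 331 and 285 in these classes. At 200 UMIs per nucleus the shares were 21.9%, 21.9%, 21.5%, 8.35% and 8.60%, so that at equal depth the first 3 classes lay close together and ExNeuron1 was at the level of microglia. The inhibitory list also summed to 3553 CPM in OPC and 3089 CPM in ExNeuron6, beside 1039 CPM in oligodendrocytes. In OPC most of that sum came from Adarb2 (1045 CPM), Nxph1 (849 CPM) and Sox6 (575 CPM), while Gad2 (39.2 CPM) and Slc32a1 (26.1 CPM), genes of GABA synthesis and transport, were near their levels in ExNeuron1 (44.7 and 23.0 CPM). The part of the list in the Erbb4 values of these classes was not tested.

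Some classes joined several of the authors' clusters. In ExNeuron5, cluster 5 (299 nuclei) had 1833 CPM of Nrg1 and 440 CPM of Erbb4, and cluster 9 (32 nuclei) had 470 CPM (172 to 1023) and 940 CPM (486 to 1642). In OPC, cluster 8 (154 nuclei) and cluster 14 (61 nuclei) were both high in Erbb4, at 1599 and 1817 CPM. The 2 clusters of ExNeuron5 had intervals apart for Nrg1 and overlapping ones for Erbb4.

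**Figure D5:**
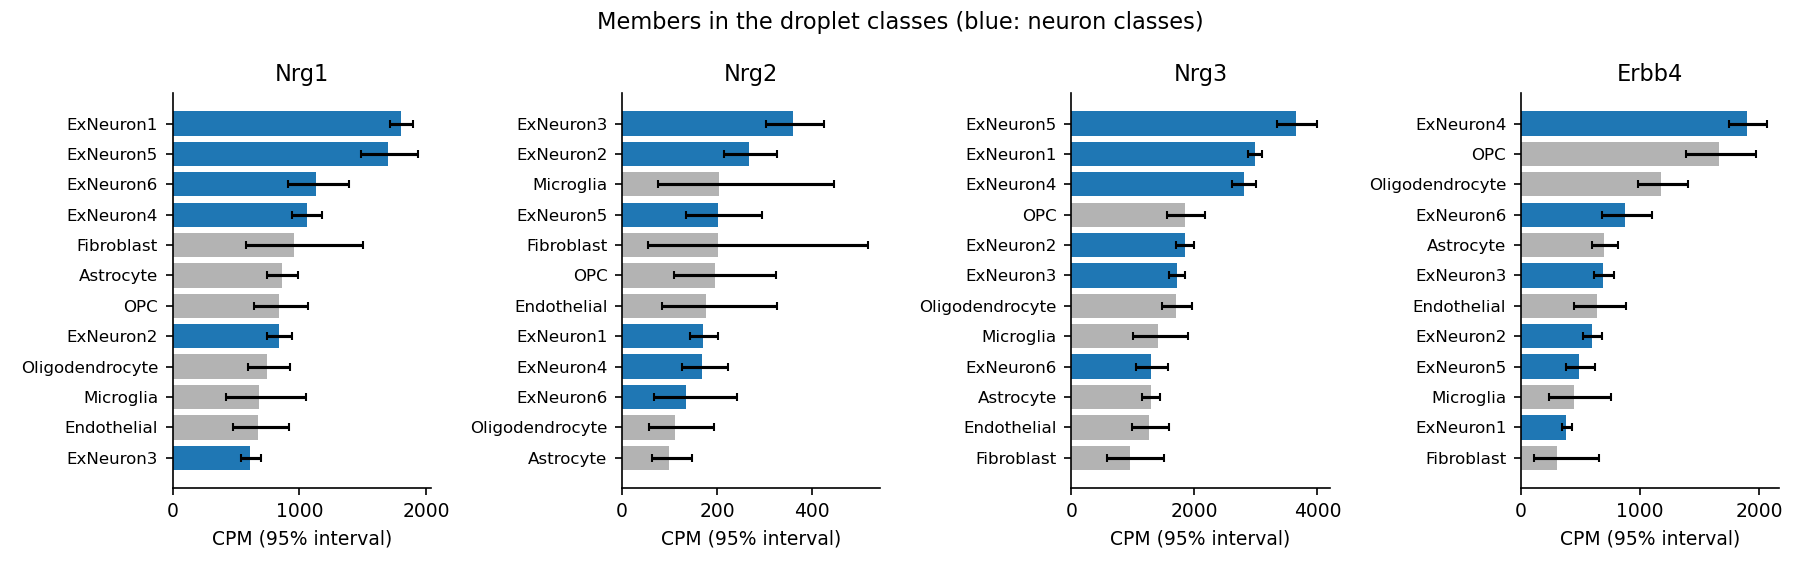
Level of each gene in the 12 droplet classes as summed CPM with exact 95% Poisson intervals, classes ordered by level, neuron classes in blue. Nrg1 and Nrg3 lead in ExNeuron1 and ExNeuron5, Nrg2 in ExNeuron3, and Erbb4 in ExNeuron4, OPC and oligodendrocytes.

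Across the 11 classes of at least 50 nuclei, the genes whose log2(CPM + 10) followed each member most closely were found among 4445 genes with at least 100 CPM in a class. For Nrg1 these were 5730522E02Rik (Pearson r = 0.91), Kalrn (0.90), Kcnh7 (0.88), Sgcz (0.87) and Kcnq5 (0.86). For Nrg3 they were Hecw1 (0.96), Agbl4 (0.90), Fam73a (0.89), Kcnt2 (0.88) and Fam189a1 (0.88). Nrg2 was followed by Fgf14 (0.93), Caln1 (0.93), Plcxd3 (0.92), Camk4 (0.92) and Rock2 (0.92), and Erbb4 by Crebrf (0.83), Thsd7a (0.80), Adam12 (0.79), Sox6 (0.77) and Dscaml1 (0.76). Adam12 had 30 UMIs in these classes. Between members, r was 0.75 for Nrg1 and Nrg3, 0.22 for Nrg2 and Nrg3, -0.19 for Nrg1 and Nrg2, -0.24 for Nrg1 and Erbb4, -0.23 for Nrg2 and Erbb4 and -0.04 for Nrg3 and Erbb4. The classes share 1 library and differ in depth, and the values are descriptions only.

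The other receptors of the family were scarce in the droplet nuclei. Egfr had 64 UMIs, 25 of them in astrocytes (107 CPM), Erbb3 had 19 with 7 in oligodendrocytes, and Erbb2 had 3. Among other EGF-family ligands the highest were Tgfa with 45 UMIs, Nrg4 with 26 and Egf with 24. Of the shedding proteases, Adam10, a sheddase, had 284 UMIs, and Bace1, the beta-secretase that cuts Nrg1, 105.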

How the data were processed

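The 4 genes and the gene lists were chosen with earlier results of these data known. The deposited tables hold counts per gene for wells, plate nuclei and droplet nuclei, and the droplet annotation deposited by the authors gives classes. Reads were mapped to hg19 and mm10, per the submitters' processing notes, and no source used here gives strand use or filters. CPM was computed from mouse counts. Wells were compared with edgeR 4.0.16 (quasi-likelihood, TMM, filterByExpr, Benjamini-Hochberg adjustment over all genes tested, threshold 0.05) in R 4.3.3, and mean CPM by 2-sided permutation tests in scipy 1.17.1. DESeq2 1.42.0, no filter, nuclei number and left-out wells or pools were tried as alternatives. The fits were tested on simulated data. Nuclei were summed, drawn to 10000 plate counts or 200 droplet UMIs, and given exact 95% intervals, which cover counting error only. Droplet classes and nuclei were taken as deposited, with no doublet caller run. Named genes were the members, pathway genes among those called, and the 5 genes most like each member. Loci come from GENCODE M21. Some pathway genes and a split by other neuron markers are not reported here.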

Additional observations from a re-analysis of the deposited data

Results flagged for a closer look

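In 5 of 32 groups of wells tested, 1 well lay far from the others, where chance gives about 1 in 20 for normally distributed values. That rate was not measured for skewed CPM from few counts, as here. Nrg1 was at 240.6 CPM in a room-temperature xylene SCRB-seq well of 10 nuclei, with the next at 86.9 CPM. In mineral oil wells of 10 nuclei, single wells stood at 2982 CPM for Nrg2 (next 266), 2796 CPM for Nrg3 (next 994) and 2619 CPM for Erbb4 (next 288). These rest on 33 counts of 11066, 21 of 7512 and 43 of 16417. Erbb4 was at 955.5 CPM in a room-temperature xylene well of 100 nuclei, with the next at 467 CPM.

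The SCRB-seq table also lists human genes, which no comparison used. Human NRG1 was at 63.97 CPM of all counts in FFPE wells (exact 95% interval 55.7 to 73.1) and at 10.1 in frozen wells (5.05 to 18.1). In FFPE wells its 216 counts, in 47 of 48 wells, came to 28.2% of the mouse Nrg1 counts. All human genes came to 118478 CPM in FFPE and 20760.0 CPM in frozen wells.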

How the results depend on the processing

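Log2 values are given unless stated. Nrg1 and Nrg3 stayed lower in FFPE than in frozen SCRB-seq wells under every alternative run, from -4.12 to -2.60 and from -2.51 to -1.67. For Nrg2, FFPE minus frozen was -0.11 with size factors and -0.13 with DESeq2's Wald test, and passed the threshold at 1.13 in wells of 100 nuclei and 0.97 for room-temperature xylene alone. With 1 pool left out, Nrg2 ran from -0.082 to 0.67. Erbb4 lost its call with size factors (0.27), the Wald test (0.27), no filter (0.90), wells of 10 nuclei (0.63), mineral oil alone (1.00) and room-temperature xylene alone (0.49), and ran from 0.43 to 1.12 with 1 pool left out. In SMART-Seq2, room-temperature xylene alone (Nrg1, -2.72) and heated xylene alone (Nrg3, -1.37) were not called, and Erbb4 was 0.86 with nuclei number as a term, 0.90 for heated xylene alone and -0.59 to 2.36 with 1 well left out. The Erbb4 share there ran from 14.8 to 23.5 percentage points. For mineral oil minus room-temperature xylene, Nrg1 turned from 0.00 to -0.18 (size factors), -0.19 (Wald test), -0.16 (no filter), -0.017 (nuclei term) and -0.20 (100 nuclei), and in wells of 100 nuclei Nrg2 was -0.10, Nrg3 0.14 and Erbb4 -0.10. Nrg3 was 0.083 for mineral oil minus heated xylene at 100 nuclei, and -0.079 with size factors and -0.082 with the Wald test for heated minus room-temperature xylene. Nrg2 for mineral oil minus heated xylene ran from 1.51 to 2.44 with 1 well left out. Members called in that pair were 0 at 100 nuclei and 0 to 2 with 1 well left out. They were 0 at 10 nuclei, where only Nrg3 and Erbb4 passed the filter and Nrg2 (503 against 27.2 CPM in the mean) was not tested. In heated minus room-temperature xylene, 2 members were called with no filter and 1 with the nuclei term. In plate nuclei the summed FFPE to frozen values were -0.91, 1.29, 0.17 and -0.57 for Nrg1, Nrg2, Nrg3 and Erbb4. At 10000 counts they were -1.68, 0.46, -1.40 and -0.71, without the 9 large nuclei -0.57, 1.72, -1.48 and -1.17, as means over nuclei -1.67, 0.42, -1.28 and -0.90, as such means without the 9 nuclei -1.65, 0.33, -1.37 and -0.89, and in batch 2 nuclei without granule markers -0.61, -1.11, -2.67 and -0.091. At 10000 counts the shares of all FFPE nuclei, the 9 large ones included, differed from frozen by 3.13 (Nrg2), -31.8 (Nrg3) and 1.18 (Erbb4) percentage points. Between droplet classes, Nrg1 was 1.89 in nuclei of at least the median UMI total, and Erbb4 was 1.96 at 200 UMIs, 1.95 as a mean over nuclei and 2.89 in nuclei of at least the median total. The cause of these moves was not tested. In the 24 FFPE wells of 10 nuclei the values rest on 135 Nrg1, 113 Nrg2, 613 Nrg3 and 438 Erbb4 counts, among 1042198 counts in all.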
